A study of Arabidopsis thaliana with 6 samples.

Results

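The genes described here are 4 nuclear genes of light harvesting and carbon metabolism in *Arabidopsis thaliana*: LHCB4.2 (AT3G08940), LHCB4.3 (AT2G40100), PRK (AT1G32060) and HPR (AT1G68010). They were found by gene symbol among 13355 genes that had a probe set naming only that gene, and each of the 4 had 1 such probe set. They were picked because an earlier look at the same arrays had shown lower values after protease IV, so their own differences between the groups are given as a description without a p-value. The study compared whole seedlings, 10 days old, kept for 1 h with 20 nM purified protease IV, a secreted protease of the bacterium *Pseudomonas aeruginosa* PA14, with mock-treated seedlings. Each group had 3 arrays (protease IV replicates 1 to 3 and mock replicates 1 to 3), labelled as biological replicates. The seedlings grew in liquid medium with 0.5% sucrose at 21 °C and 16 h of light a day at 65 to 70 µE per square metre and second, and the medium was renewed on day 8. No ecotype or transgene is given in the sources used here. Mock is the name used here for seedlings whose titles read nontreated and whose treatment field reads mock control. The sources used here do not state whether buffer was added to them or how wells were assigned to replicates. P-values therefore cover only the spread among these arrays, some of which may be technical.

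In the chloroplast, light-harvesting proteins bind chlorophyll and pass the absorbed energy to the photosystems, and the electron transport chain turns it into ATP and reducing power. The Calvin cycle uses both to fix CO2, and photorespiration recovers the carbon that is diverted when Rubisco reacts with oxygen. The photosystem core proteins are largely encoded in the plastid, whereas the antenna proteins and most Calvin cycle and photorespiratory enzymes are encoded in the nucleus. Nuclear photosynthesis genes as a class respond to light, sugar supply and stress.

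The values are log2 expression values from Affymetrix arrays, on which several short probes together read 1 transcript. Array medians lay between 6.07 and 6.13. Across genes the correlation was 0.996 to 0.998 between arrays of 1 group and 0.953 to 0.963 between groups, although genes are not independent replicates. In limma with Benjamini-Hochberg adjustment over all 13355 genes, 22.8% of genes were lower after protease IV and 11.4% were higher at an adjusted p under 0.05. All 4 members were among the lower ones, which is how they had been chosen. Whole seedlings were used, so fewer cells of a type and less RNA per cell cannot be told apart. Among the 4 measured root markers, 1 was lower (EXPA18, -0.34; limma, adjusted p = 0.0253; not passed without any 1 of 4 single arrays or after cyclic loess) and 3 did not pass, and the root gene PYK10 was bright in both groups, at 12.46 in protease IV and 12.63 in mock arrays. All 3 measured regulators of the stomatal lineage fell, with differences of -0.61 in FMA, -0.51 in SPCH and -0.31 in MUTE (limma, adjusted p = 0.000980, 0.00130 and 0.0344), with a median of -0.51. MUTE lost its call in 5 of the 6 fits that left out 1 array and after cyclic loess (adjusted p = 0.0820), and its protease IV mean of 3.83 is dim. The part of a change in cell types in the differences described next was not tested. Both measured reference genes, GAPC2 at -0.13 and PEX4 at -0.01, did not pass (limma, adjusted p = 0.286 and 0.946).

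LHCB4.2 encodes a minor antenna protein that sits between the main light-harvesting trimers and the core of photosystem II. Its level was 11.78, 11.91 and 11.77 on the log2 scale in protease IV replicates 1, 2 and 3, against 12.60, 12.57 and 12.59 in mock replicates 1, 2 and 3. All 3 protease IV arrays were below all 3 mock arrays, with a gap of 0.66 between the nearest values. Over all genes tested 31.0% had groups separated in this direction, and the same was so for all 4 members. The means were 11.82 ± 0.079 in protease IV and 12.59 ± 0.018 in mock seedlings (SD, n = 3 each), a difference of -0.77 (SE 0.073) or a level 1.70-fold lower. Only 2.52% of the genes tested had a more negative difference.

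LHCB4.3 encodes a second isoform of the same antenna protein. It measured 9.02, 9.21 and 9.08 in protease IV replicates 1, 2 and 3, against 9.62, 9.56 and 9.56 in the mock replicates. The groups again did not overlap, and the gap was 0.35. The means were 9.10 ± 0.096 in protease IV and 9.58 ± 0.039 in mock seedlings (SD, n = 3 each), a difference of -0.48 (SE 0.077) or 1.39-fold lower. A more negative difference was seen in 8.20% of genes.

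LHCB4.1, the other gene of this small family and not one of the 4, was also measured. Its level was 12.48, 12.83 and 12.63 in protease IV replicates 1, 2 and 3, against 12.91, 12.91 and 12.96 in the mock replicates. Protease IV replicate 2 came within 0.074 of the nearest mock array. LHCB4.1 fell by 0.28 (SE 0.094; limma, adjusted p = 0.0432), but the call was lost without any 1 of the 5 arrays other than protease IV replicate 2 (adjusted p = 0.0895 to 0.146), after quantile normalization of the tested genes (adjusted p = 0.0633) and with cyclic loess scaling (adjusted p = 0.255). The 3 isoforms thus had differences of -0.77, -0.48 and -0.28 in the order LHCB4.2, LHCB4.3 and LHCB4.1. Whether they differ from each other was not tested, since 2 of them were chosen on this contrast.

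PRK encodes phosphoribulokinase, which makes ribulose bisphosphate, the molecule to which Rubisco adds CO2. It measured 12.21, 12.29 and 12.25 in protease IV replicates 1, 2 and 3, against 12.79, 12.74 and 12.69 in the mock replicates. The replicates were tight in both groups and 0.40 apart at the nearest point. The means were 12.25 ± 0.041 in protease IV and 12.74 ± 0.048 in mock seedlings (SD, n = 3 each). The difference was -0.49 (SE 0.071), or 1.41-fold lower, and 7.80% of genes had a more negative one.

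HPR encodes the peroxisomal hydroxypyruvate reductase, which makes glycerate in the photorespiratory pathway. Its level was 12.05, 12.43 and 12.23 in protease IV replicates 1, 2 and 3, against 12.68, 12.62 and 12.58 in the mock replicates. The groups did not overlap, but the gap was only 0.15, and the protease IV arrays spread over a wider range than the mock arrays. The means were 12.24 ± 0.19 in protease IV and 12.63 ± 0.046 in mock seedlings (SD, n = 3 each), a difference of -0.39 (SE 0.099) or 1.31-fold lower. A more negative difference was seen in 12.3% of genes. A further probe set is annotated to both HPR and AT5G05370 and was left out of the fit because it names more than 1 gene. It measured 9.99 ± 0.098 in protease IV and 9.88 ± 0.066 in mock seedlings (SD, n = 3 each), a difference of 0.11 with overlapping groups, and which of the 2 transcripts it reads was not tested.

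**Figure D1:**
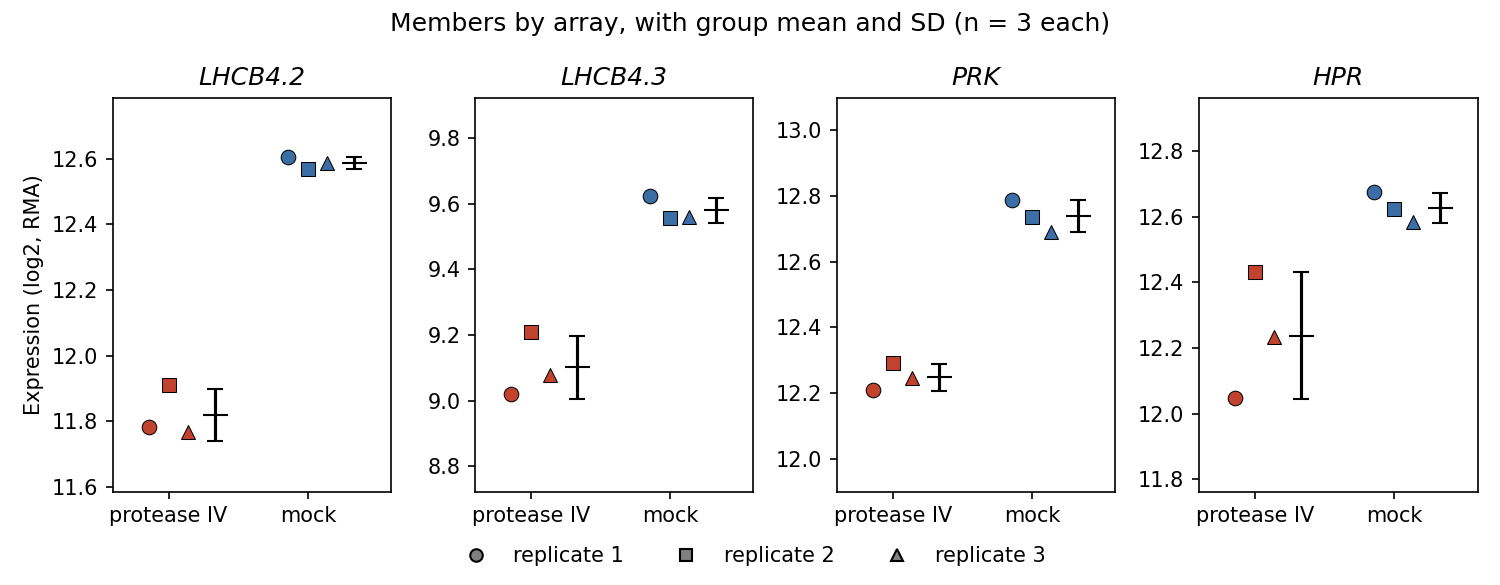
Expression of LHCB4.2, LHCB4.3, PRK and HPR on each array, in log2 RMA units, with protease IV arrays (red) left of mock arrays (blue), replicates as symbols, and the group mean with SD (n = 3 each) beside the points. Each panel spans 1.2 units, and in each the 3 protease IV arrays lie below the 3 mock arrays, with the widest spread in HPR after protease IV (SD 0.19).

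The 4 genes shared the array with the highest value in each group. Protease IV replicate 2 gave the highest of the 3 protease IV values in all 4 genes, from 0.042 above the group mean in PRK to 0.19 above it in HPR. Mock replicate 1 gave the highest mock value in all 4. Protease IV replicate 2 was also the highest of its group in 26 of the 38 other pathway genes described next, or 68.4%. Its share was 43.9% of all genes tested and 48.6% of the 3339 genes with the highest mean level. Mock replicate 1 was the highest of its group in 14 of the 38, or 36.8%. Its share was 29.7% of all genes tested and 31.2% of the 3339. Leaving out protease IV replicate 2 made the HPR difference -0.49, and leaving out protease IV replicate 1 made it -0.29.

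RNA integrity was read from control probe sets at the 3-prime and 5-prime ends of actin, GAPDH and ubiquitin transcripts. For actin the 3-prime minus 5-prime difference was 1.73, 1.58 and 2.12 in protease IV replicates 1 to 3, against 1.58, 1.58 and 1.57 in mock replicates 1 to 3 (two-sided exact permutation p = 0.1, the smallest p that 20 relabellings allow). GAPDH and ubiquitin gave exact permutation p = 0.3 and p = 0.8. The highest actin value was in protease IV replicate 3, which gave the lowest value of its group for LHCB4.2 but not for LHCB4.3, PRK or HPR. Protease IV replicate 2 gave the highest value of its group in all 4 genes. Its actin value of 1.58 was the lowest of its group and close to the mock values. The GAPDH value of that array was also the lowest of its group (0.035), whereas its ubiquitin value was the highest (0.19). The part of RNA integrity in the differences was not tested.

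The 4 genes are all bright on these arrays and lie among the 3339 genes with the highest mean level. Of those 3339 genes 37.5% were called lower, and their median difference was -0.16, against -0.06 over all genes. Among the 91 genes with a mean level of at least 12, the range of LHCB4.2, PRK and HPR, 17.6% were called lower and the median difference was -0.07. The 91 include LHCB4.2, PRK and HPR themselves and 8 of the other pathway genes described below, of which 4 were called lower. They are thus not an outside background. After cyclic loess scaling, which removes trends with level, 11.3% of all genes were called lower and 15.4% higher, and the median of the 91 was 0.05. The 4 differences were then -0.64 (SE 0.070) for LHCB4.2, -0.30 (SE 0.071) for LHCB4.3, -0.36 (SE 0.068) for PRK and -0.26 (SE 0.093) for HPR. With this scaling HPR was no longer called lower, whereas the other 3 were.

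**Figure D2:**
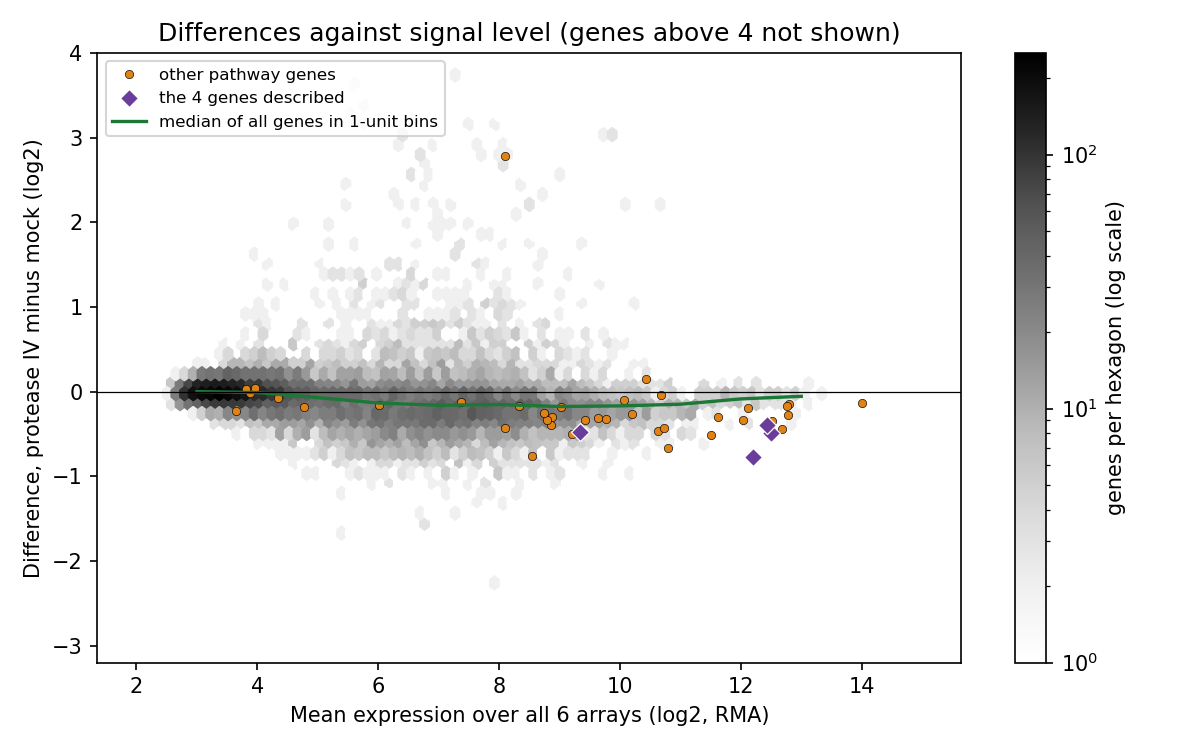
Difference between protease IV and mock arrays (log2) against the mean level over all 6 arrays (log2) for 13355 genes, shaded by gene density, with the 4 genes as purple diamonds, the 38 other pathway genes as orange points and the median of all genes in 1-unit bins as a green line. The purple diamonds lie below the green line, and the single orange point far above 0 is HEMA2, at 2.78.

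To place the 4 genes in their pathways, 9 lists were drawn up by gene symbol, covering the antenna, photosystem subunits, electron transport, the Calvin cycle, photorespiration, chlorophyll, starch and sucrose metabolism, regulators, and photosystem repair. Besides the 4, the lists held 331 entries, and 38 of their genes had a probe set naming only that gene. These 38 are the genes called measured in what follows. Of the 38, 21 fell, 1 rose and 16 did not pass (limma over all genes), with a median difference of -0.26, and 34 had a negative difference. That is 55.3% lower, against 22.8% of all genes. Of the 30 that lie among the 3339 brightest genes 20 fell, or 66.7%, against 37.5% of those 3339. After cyclic loess 9 fell, or 23.7%, against 11.3% of all genes. Without protease IV replicate 1 the count was 12, or 31.6%, against 18.6% of all genes, and without mock replicate 1 it was 13, or 34.2%, against 17.3%. The other members of these lists were not analysed here by name, so the counts do not describe whole pathways. Counts for single lists rest on few genes. They are to be read beside the 22.8% of all genes and 37.5% of the 3339 brightest called lower.

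Both measured genes of the antenna list outside the 4 fell as reported, although LHCB4.1 was called lower in only 8 of the 16 alternatives. The other was LIL3:1, a light-harvesting-like protein that takes part in chlorophyll synthesis, which fell by 0.47 (SE 0.069; limma, adjusted p = 0.000401). LIL3:1 measured 10.36, 10.44 and 10.40 in protease IV replicates 1 to 3, against 10.87, 10.87 and 10.86 in the mock replicates.

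Of 5 nuclear photosystem subunits and assembly factors 2 fell and 3 did not pass, where 37.5% of the 3339 brightest genes were called lower. PSBY, a small subunit of photosystem II, fell by 0.44 (SE 0.075) and PSB27, a lumenal factor for assembly and repair of that photosystem, fell by 0.30 (SE 0.087; limma, adjusted p = 0.00113 and 0.0217). PSBY fell in every setting run, whereas PSB27 did not pass after cyclic loess (adjusted p = 0.204). The 3 that did not pass differed by -0.14 (PSAE-1), -0.16 (PSAN) and -0.20 (PSBW), named here after their values were seen, and passed as lower under 0, 2 and 5 of the 16 alternatives. PSB27 did not pass either without protease IV replicate 1 or 3 or mock replicate 1 or 3 (adjusted p = 0.0616 to 0.0775 in limma). In all 5 the groups did not overlap and protease IV was lower, as was so for 31.0% of all genes tested.

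Of 4 genes of electron transport and the ATP synthase, 3 fell. NdhN, a subunit of the chloroplast NADH dehydrogenase-like complex that works in cyclic electron flow, measured 7.96, 8.32 and 8.20 in protease IV replicates 1 to 3, against 8.96, 8.94 and 8.85 in the mock replicates. It fell by 0.76 (SE 0.097; limma, adjusted p = 0.000147), a size close to that of LHCB4.2. PGRL1B, which acts in the other route of cyclic electron flow, fell by 0.43 (SE 0.072; adjusted p = 0.000993 in limma). ATPC1, the gamma subunit of the chloroplast ATP synthase, fell by 0.34 (SE 0.091; limma, adjusted p = 0.0145) but did not pass after cyclic loess (adjusted p = 0.106) or without protease IV replicate 1 or 3 or mock replicate 3 (adjusted p = 0.0548 to 0.0572). Its isoform ATPC2 did not pass, at -0.16 (adjusted p = 0.142 in limma).

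In the Calvin cycle PRK was measured with 2 others. SBPASE, sedoheptulose bisphosphatase, which works in the same regenerative phase as PRK, measured 11.82, 11.89 and 11.90 in protease IV replicates 1 to 3, against 12.21, 12.22 and 12.20 in the mock replicates. It fell by 0.34 (SE 0.069; limma, adjusted p = 0.00346) and also passed after cyclic loess, at -0.20 (adjusted p = 0.0465). RCA, Rubisco activase, the chaperone that keeps Rubisco active, measured 13.94 ± 0.037 in protease IV and 14.07 ± 0.011 in mock seedlings (SD, n = 3 each). Its difference of -0.13 did not pass (limma, adjusted p = 0.184). The RCA groups did not overlap, as was so in this direction for 31.0% of all genes tested. HPR was the only gene of the photorespiration list, which has 41 entries, with a probe set naming only that gene.

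The chlorophyll list held 12 measured genes, of which 5 fell, 1 rose and 6 did not pass. Of all genes 22.8% were called lower, and of the 3339 brightest 37.5%, so this count is near the share among bright genes. CHLM, the methyltransferase of magnesium protoporphyrin, fell by 0.52 (SE 0.093) and CHLI2, a subunit of magnesium chelatase, fell by 0.39 (SE 0.089; limma, adjusted p = 0.00144 and 0.00596). HEME1 and HEME2, uroporphyrinogen decarboxylases that serve both heme and chlorophyll, fell by 0.34 and fell by 0.26 (limma, adjusted p = 0.0170 and 0.0275). NOL, a chlorophyll b reductase that acts in breakdown and not in synthesis, fell by 0.30 (limma, adjusted p = 0.0154). After cyclic loess CHLM passed, at -0.37 (adjusted p = 0.00905), and the other 4 did not. HEME1 also lost its call without protease IV replicate 1 or 3 or mock replicate 3 (adjusted p = 0.0600 to 0.0663), and NOL without protease IV replicate 1 or mock replicate 1 (adjusted p = 0.0565 and 0.0746). HEME2 kept its call only without protease IV replicate 2 among the 6 arrays left out in turn.

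HEMA2 was the 1 gene of the list that rose as reported. It encodes a glutamyl-tRNA reductase, the first committed enzyme of tetrapyrrole synthesis, in the isoform known more for heme supply outside green tissue than for chlorophyll. It measured 9.69, 9.27 and 9.50 in protease IV replicates 1 to 3, against 6.72, 6.71 and 6.69 in the mock replicates. The means were 9.49 ± 0.21 in protease IV and 6.71 ± 0.014 in mock seedlings (SD, n = 3 each), a rise of 2.78 (SE 0.10) or 6.86-fold (limma, adjusted p = 7.03e-09). The next enzyme, glutamate-1-semialdehyde aminomutase, encoded by GSA1, differed by 0.15 (limma, adjusted p = 0.178) and passed as higher only after cyclic loess (0.31, adjusted p = 0.00813). HEMB1, which acts after it, did not pass, at -0.04 (adjusted p = 0.699 in limma).

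Of 8 genes of starch and sucrose metabolism 5 fell and 3 did not pass. SWEET11, a sucrose exporter that feeds the phloem, measured 10.39, 10.60 and 10.40 in protease IV replicates 1 to 3, against 11.20, 11.08 and 11.11 in the mock replicates. It fell by 0.67 (SE 0.082; limma, adjusted p = 0.000110) and also passed after cyclic loess. SBE2.2, a starch branching enzyme, fell by 0.34, and F2KP, which sets the level of a regulatory sugar phosphate, fell by 0.32 (limma, adjusted p = 0.00363 and 0.0156). AT5G26570, phosphoglucan water dikinase of starch breakdown, fell by 0.25 and the alpha-amylase AMY1 fell by 0.22 (limma, adjusted p = 0.0278 and 0.0445). AMY1 was dimmer than the lower quartile of every array in both groups, at 3.54 in protease IV and 3.76 in mock seedlings, so its difference is one between dim signals. SBE2.2, F2KP, AT5G26570 and AMY1 did not pass after cyclic loess. Calls were also lost for F2KP without protease IV replicate 1 or mock replicate 1 (adjusted p = 0.0575 and 0.0752), for AT5G26570 without protease IV replicate 1 or 2 or mock replicate 1 or 2 (adjusted p = 0.0591 to 0.117), and for AMY1 without any array but protease IV replicate 1 (adjusted p = 0.0777 to 0.122).

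HYH is a bZIP transcription factor of light signalling. It was the only gene of the regulator list, which has 35 entries, with a probe set naming only that gene. HYH fell by 0.32 (SE 0.089; limma, adjusted p = 0.0195). It did not pass after cyclic loess (adjusted p = 0.287) or without protease IV replicate 1 or mock replicate 1 or 3 (adjusted p = 0.0568 to 0.0687). Of 4 genes of photosystem repair and protection 2 fell, where 37.5% of the 3339 brightest genes were called lower. LPA2, an assembly factor of photosystem II, fell by 0.50 and TROL, which anchors ferredoxin-NADP reductase at the thylakoid, fell by 0.43 (limma, adjusted p = 0.000981 and 0.00203), and both passed after cyclic loess. LPA1 and TAPX differed by -0.17 and -0.18 (limma, adjusted p = 0.0918 and 0.212), and passed as lower under 2 and 1 of the 16 alternatives. These were a filter at a mean of 5 and an intensity trend in eBayes for LPA1 (adjusted p = 0.0464 and 0.0499), and leaving out protease IV replicate 2 for TAPX (adjusted p = 0.0233). In all, 9 of the 21 falling genes were also called lower after cyclic loess: LIL3:1, PSBY, NdhN, PGRL1B, SBPASE, CHLM, SWEET11, LPA2 and TROL. These 9 were called lower in every setting run.

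**Figure D3:**
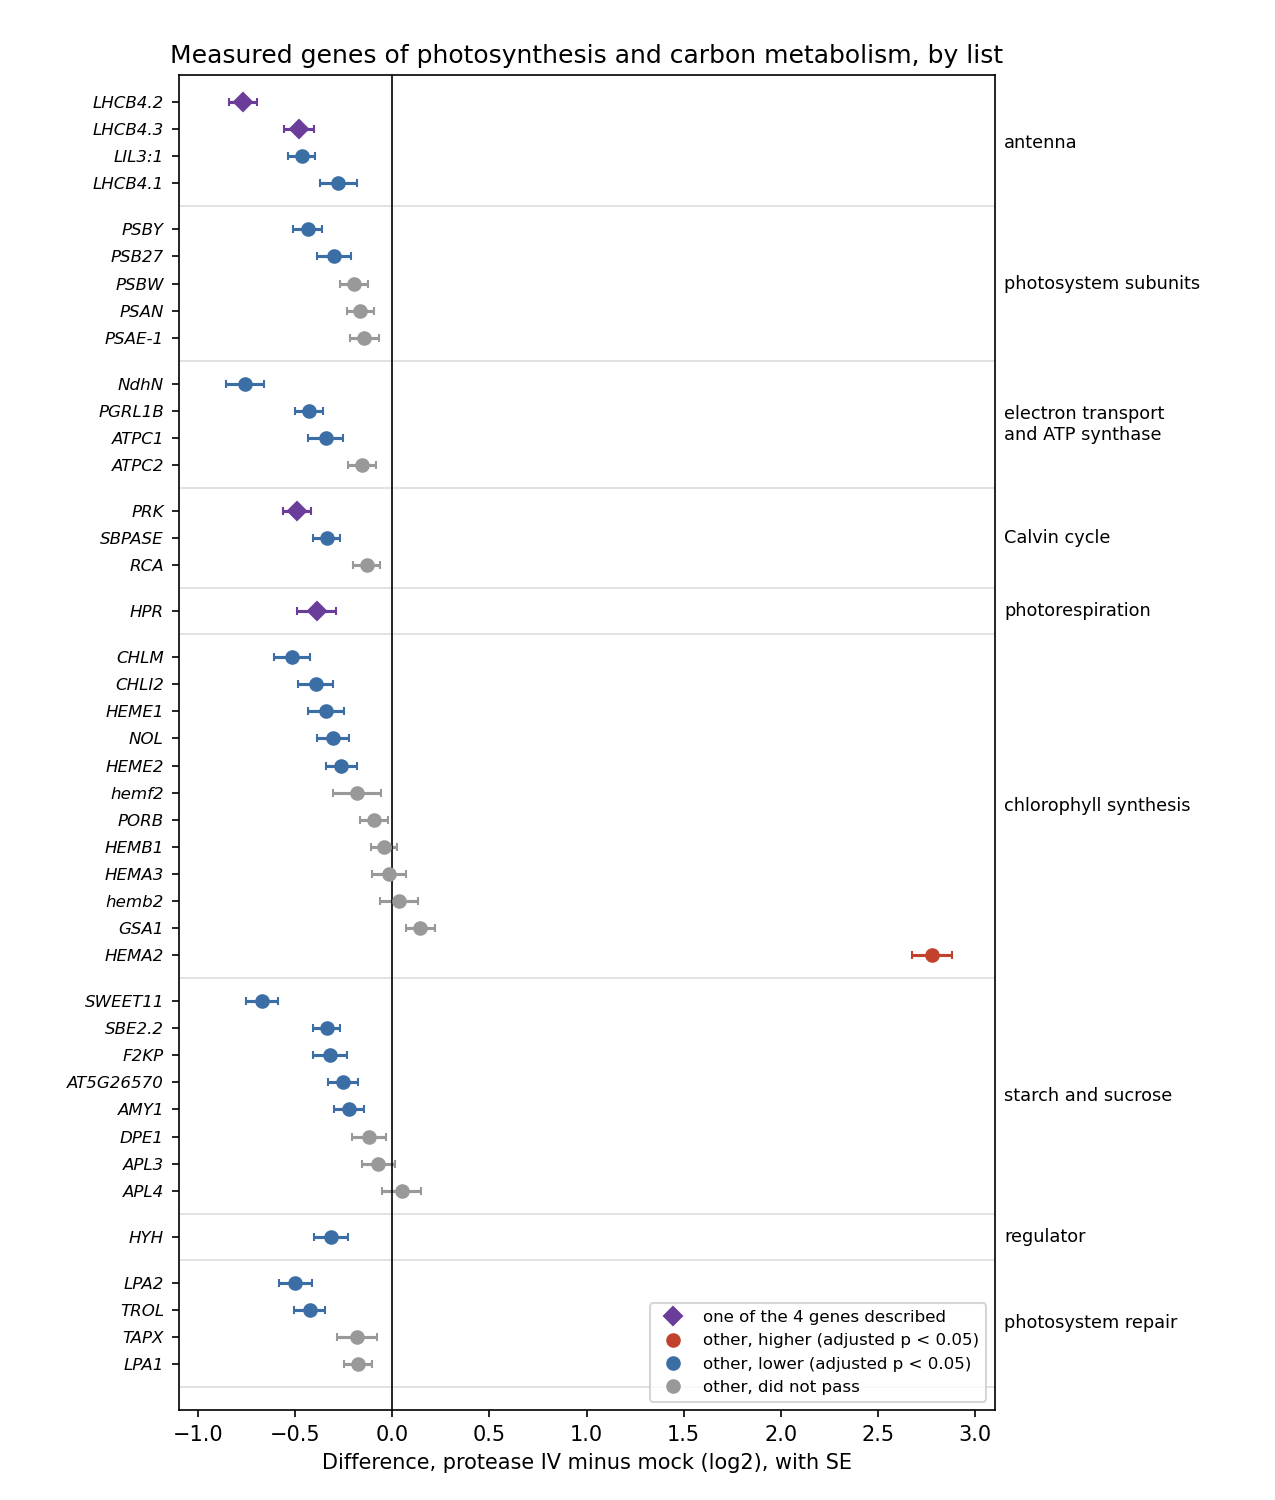
Difference between protease IV and mock arrays (log2, with SE) for the 4 genes (purple diamonds) and 38 other measured genes of photosynthesis and carbon metabolism, grouped by list. Blue points are genes called lower, the red point is HEMA2, called higher at 2.78, and grey points did not pass. Most points lie between 0 and -0.77.

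Plastid-encoded transcripts for photosystem, cytochrome, ATP synthase and Rubisco subunits were set beside the nuclear genes. Those of the complex that holds NdhN were not included. Of 33 measured transcripts 0 were lower and 1 was higher in limma, against 22.8% lower and 11.4% higher over all genes. The 33 differences ran from -0.17 to 0.37 with a median of 0.05. The large subunit of Rubisco, the enzyme that PRK supplies, differed by -0.10. These transcripts were picked after values were known, and the difference between nuclear and plastid genes was not tested. How well these arrays read plastid transcripts was not tested either, which limits what can be read from their flat values.

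The genes whose profiles were most like those of the 4 were found by the root-mean-square distance between log2 profiles centred on their mean over the 6 arrays. This distance includes the difference between the groups. Near profiles therefore have similar differences, and distant ones unlike differences, largely by construction. For LHCB4.2 they were AT3G07310 (distance 0.025), AT5G08010 and AT3G13510, with differences of -0.80, -0.79 and -0.75. For LHCB4.3 they were AT4G11570 (distance 0.015), LSMT-L and UBC18, with differences of -0.47, -0.49 and -0.43. For PRK they were AT3G27320 (distance 0.024), AT1G03687 and AT3G10970, at -0.46, -0.46 and -0.51, and for HPR they were AT5G17670 (distance 0.025), AT5G25360 and AT1G57770, at -0.40, -0.42 and -0.35. Among the 4 themselves LHCB4.3 and PRK had the most similar profiles (distance 0.036), each ranking 19th nearest to the other among all genes tested. LHCB4.2 and HPR were the most distant pair, at 0.21.

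**Figure D4:**
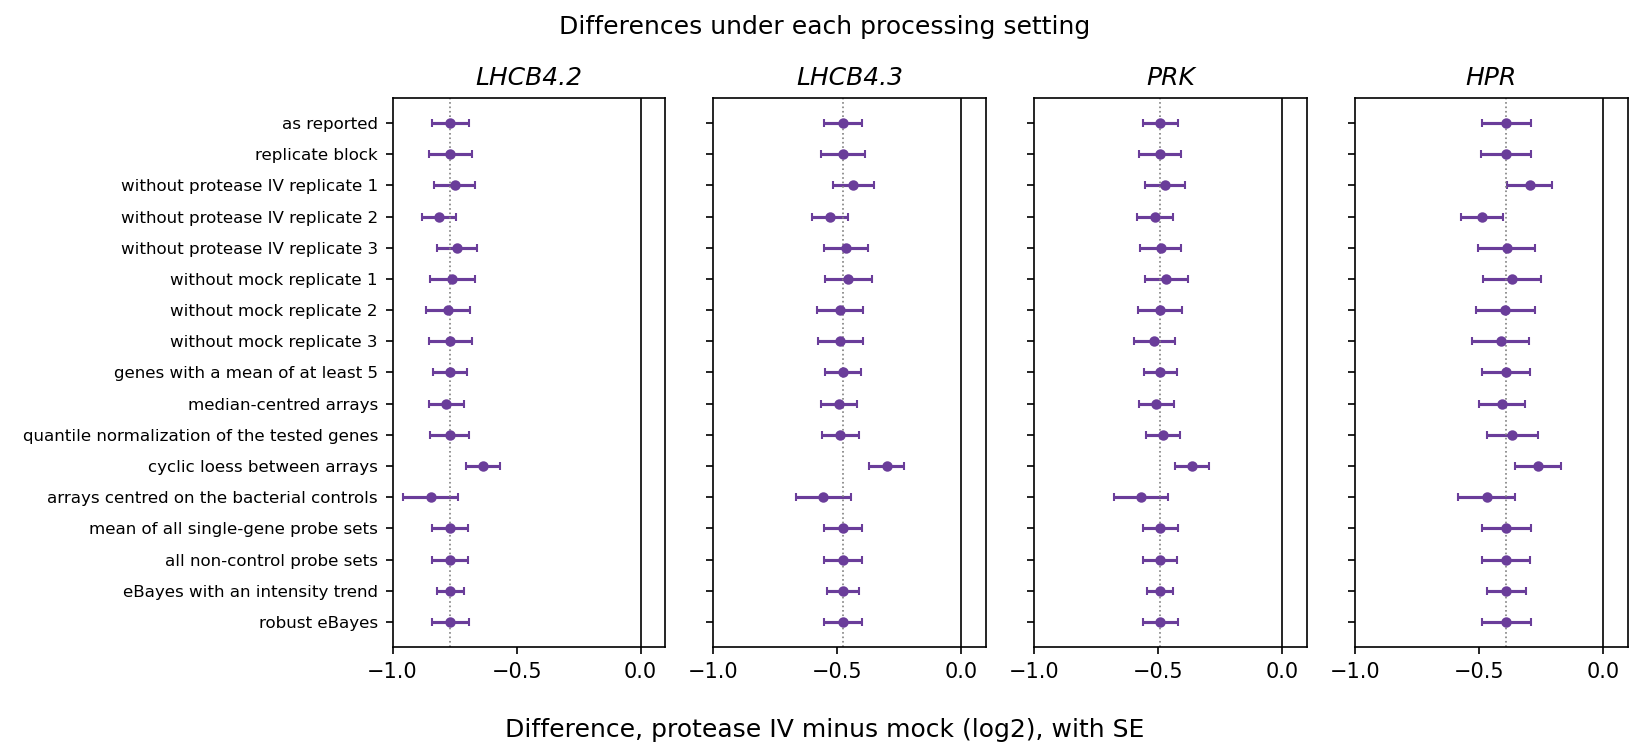
Difference between protease IV and mock arrays (log2, with SE) for LHCB4.2, LHCB4.3, PRK and HPR as reported and under 16 other processing settings, listed from top to bottom, with a dotted line at the reported value. All differences are negative, from -0.85 to -0.64 in LHCB4.2 and from -0.49 to -0.26 in HPR, and those nearest to 0 come from cyclic loess scaling.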

How the data were processed

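RNA from 6 samples of whole seedlings was hybridized to 1 array each. The deposited values are log2 expression values made with RMA in affy 1.36.1, per the submitters' processing notes. RMA corrects background, applies quantile normalization and gives 1 value per probe set, so changes in total mRNA cannot be read from these values. The sources used here give no RMA settings. No probe-level files were used here, and the number of arrays limits the precision. Of 22810 probe sets, 13513 named 1 gene in the platform annotation held by GEO (possibly outdated), 503 named several genes, 8730 were unnamed and 64 were controls. RefSeq (TAIR10.1) matched 13436 of the single-gene probe sets and gave current symbols. For 147 genes with several such probe sets the one with the highest mean was used, leaving 13355 genes.

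Differences are protease IV minus mock, fitted over all genes with limma 3.58.1 in R 4.3.3 (lmFit, eBayes without trend, no covariates), two-sided, with Benjamini-Hochberg adjustment over all 13355 genes and a threshold of 0.05. The fit was also run on simulated data with independent noise and few changed genes. That setting is unlike the many calls and level-dependent shift seen here, so it does not check the fit under these conditions. The 9 pathway lists were matched by symbol and synonym, and 5 genes that only share a name with a list entry were removed. The members and lists were chosen with earlier results of these data known. Genes named are the 4 members, up to 5 genes per list and direction past the threshold with the largest differences, LHCB4.1 and RCA as close partners, and the 3 nearest profiles to each member. Other genes named because they did not pass were chosen after their values were seen. Alternatives were a replicate block, leaving out each array, a filter at a mean of 5, 4 other scalings between arrays (one centred on 18 bacterial control probe sets), other probe set choices and other variance models.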

Additional observations from a re-analysis of the deposited data

How the results depend on the processing

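The 4 members kept a negative difference under all 16 alternatives. All 4 were also called lower under each of them except cyclic loess, where HPR did not pass. With cyclic loess between arrays LHCB4.2 was -0.64, LHCB4.3 was -0.30 and PRK was -0.36, and after centring arrays by the bacterial control probe sets they were -0.85, -0.56 and -0.57, moves larger than the SD pooled over both groups. Leaving out each array in turn gave -0.81 to -0.74 for LHCB4.2, -0.53 to -0.44 for LHCB4.3, -0.51 to -0.47 for PRK and -0.49 to -0.29 for HPR.

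Among the 38 other pathway genes 21 were lower and 1 higher as reported. With cyclic loess 9 were lower and 2 higher, and leaving out each array gave 12 to 20 lower and 1 higher. Over all genes the counts were 1525 higher and 3039 lower as reported, 2060 and 1514 with cyclic loess, and 2888 and 5689 over all 22746 non-control probe sets, where more features were tested. The share of calls that were lower was 66.6% as reported and 42.4% with cyclic loess. Leaving out arrays gave 1342 to 1491 higher and 2316 to 3214 lower. Centring on the bacterial controls put the median of all genes at -0.14, against -0.06 as reported. The cause of these shifts was not tested.

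Deviations from the group means correlated at 0.038, -0.10 and -0.18 between same-numbered arrays. Between protease IV and mock arrays with different numbers they correlated at -0.060 to 0.16. These values cannot decide whether the replicate numbers pair the samples, because samples handled together need not deviate alike. With the replicate block 18 pathway genes were lower and 1 higher, and 1441 genes were higher and 2738 lower overall. LHCB4.1, AT5G26570 and AMY1 did not pass there. Dim signals are compressed on such arrays, which limits what can be read for AMY1.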
